A study of Mus musculus with 2 samples.

Results

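The cells described here are Cxcl10-high cells of the liver, 180 of 34080 barcodes in 2 single-cell libraries, or of 25424 that passed the quality filter. They were chosen by raw counts of unique molecular identifiers (UMIs): at least 200 genes and at most 20% mitochondrial UMIs, at least 5 Cxcl10, 10 Lyz2 and 1 Csf1r UMIs, no Clec4f, Vsig4 or Fscn1 UMI, and at most 1 Cd3 UMI (Cd3d, Cd3e and Cd3g together). Lyz2 encodes lysozyme and Csf1r the receptor for macrophage growth factor, while Clec4f and Vsig4 mark Kupffer cells and Fscn1 mature dendritic cells. The control library held 86 such cells and the MC38 library 94. "Monocyte gate" below means the same criteria without the one on Cxcl10, and "Cxcl10-zero" cells are those of the gate with no Cxcl10 UMI.

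CXCL10 is a chemokine that draws CXCR3-bearing T and NK cells. Its gene is switched on in monocytes and macrophages by type I interferon, by interferon gamma and by NF-kB signalling. In the liver, monocytes arriving from blood are of a classical kind (Ly6c2 and Ccr2) or a nonclassical, patrolling kind (Treml4, Ace), and some turn into macrophages that make complement C1q. The antiviral genes Ifit1, Ifit2, Ifit3, Rsad2, Cmpk2 and Mx1 are textbook targets of type I interferon, while Cxcl9, the guanylate-binding proteins and Irf1 respond most to interferon gamma.

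Both libraries were made with a 5′ 10x Genomics kit from liver mononuclear cells of C57BL/6 mice at day 14, after hepatocytes had been spun out and a density gradient run. MC38 is a mouse colon adenocarcinoma line. One library is labelled as having no tumor (control) and the other MC38, from livers that carried the tumour; the age and sex of the mice were not given. The protocol text is the same for both and names 500000 MC38 cells injected into the spleen, the spleen's removal, and 3000000 MC38 cells under the skin, and which of these the control mice received is not stated apart from the titles, "SC" for control and "SC+liver" for MC38. Each library pooled 3 mice and cells were not traced to a mouse, so there was 1 sample a group. No test between libraries or within them was therefore made, and the 95% intervals cover counting error only, not the spread between animals.

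The control library held 14258 barcodes and 91617457 UMIs and the MC38 library 19822 and 114421875. The filter kept 8086 and 17338, and the median mitochondrial share over all barcodes was 17.2% for control and 6.87% for MC38. The Cxcl10-high cells were deep, with a median of 10338.5 UMIs and 2790.5 genes in the control and 12147 UMIs and 3155 genes in the MC38 library, and a median mitochondrial share of 7.31% and 4.92%. There were 63 barcode sequences present in both libraries, and 0 of the Cxcl10-high cells carried one.

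Against its markers the label of interferon monocytes held in part. The classical monocyte genes Ly6c2 and Ccr2 were detected in 90.7% and 93.0% of control and 89.4% and 95.7% of MC38 Cxcl10-high cells. In the MC38 library, however, 35 of 94 cells (37.2%, exact binomial interval 27.5 to 47.8) held at least 5 UMIs of C1qa, C1qb and C1qc, genes of macrophages, against 2 of 86 (2.33%, 0.283 to 8.15) in the control. At least 5 UMIs of a core of 6 antiviral genes were held by 33 of 86 control and 11 of 94 MC38 cells, as described below, and the cells are called by the rule, Cxcl10-high cells, here. Kupffer cell markers summed to 3.10 and 6.74 CPM (counts per 1000000 UMIs), with 5 and 3 of the 8 at 0. T cell markers summed to 53.7 and 30.3 CPM and NK or ILC1 markers to 133 and 166 CPM, and all 7 basophil or mast cell markers were at 0. A doublet caller marked 1 of the 86 control cells and 10 of the 94 MC38 cells (10.6%), beside 12.6% of MC38 Cxcl10-zero cells. B cell markers were at 315 and 387 CPM and plasmacytoid dendritic cell markers at 225 and 51.4 CPM, with at least 5 UMIs of Cd79a in 3 and 4 cells and of Siglech in 3 and 1. In Cxcl10-zero cells T cell markers were at 50.8 and 14.7 CPM and NK or ILC1 markers at 98.6 and 78.4 CPM. B cell markers were there at 499 and 210 CPM and plasmacytoid dendritic cell markers at 210 and 36.0 CPM. In the MC38 library each of these lists was thus higher in Cxcl10-high cells, and in the control all but the B cell markers were. The part of these other cell types in the results was not tested.

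The start of the Cxcl10 gene (chromosome 5, 92346638 to 92348889, minus strand, GRCm38) shows the letters of both kinds of control element. The 300-base windows below run from 250 bases before to 50 bases after the RefSeq transcript start (GRCm38.p6), 5′ to 3′ on the gene's strand, and are shown for Cxcl10, for Gbp5, which ranked first by likeness to Cxcl10 over cells of the monocyte gate, and for Isg15 and Rsad2, antiviral genes that differed between the libraries. Capitals mark matches on either strand to an interferon-stimulated response element (ISRE, GAAA, any 2 bases, then GAAA), an interferon gamma activated site (GAS, TTC, any 3 bases, then GAA) or an NF-kB site (kB, GGGA, any 2 bases, then TTCC).
Cxcl10, chr5:92348840-92349139, minus strand: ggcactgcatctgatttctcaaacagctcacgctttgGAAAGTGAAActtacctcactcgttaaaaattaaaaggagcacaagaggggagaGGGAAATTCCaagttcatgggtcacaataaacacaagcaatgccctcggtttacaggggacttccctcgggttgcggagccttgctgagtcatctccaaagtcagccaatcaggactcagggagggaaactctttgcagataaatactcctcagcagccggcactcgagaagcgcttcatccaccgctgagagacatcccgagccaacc
Gbp5, chr3:142496684-142496983, plus strand: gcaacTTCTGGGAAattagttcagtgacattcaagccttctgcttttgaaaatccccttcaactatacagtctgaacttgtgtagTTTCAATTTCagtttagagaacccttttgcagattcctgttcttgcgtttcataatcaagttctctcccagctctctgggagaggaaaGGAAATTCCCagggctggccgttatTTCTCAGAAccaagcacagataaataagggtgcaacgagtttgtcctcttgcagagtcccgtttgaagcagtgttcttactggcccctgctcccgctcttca
Isg15, chr4:156200769-156201068, minus strand: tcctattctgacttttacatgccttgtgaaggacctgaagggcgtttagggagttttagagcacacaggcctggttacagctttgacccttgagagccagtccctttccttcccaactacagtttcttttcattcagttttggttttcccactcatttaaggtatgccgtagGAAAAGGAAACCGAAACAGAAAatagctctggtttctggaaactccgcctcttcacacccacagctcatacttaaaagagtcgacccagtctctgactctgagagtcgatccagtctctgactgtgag
Rsad2, chr12:26456403-26456702, minus strand: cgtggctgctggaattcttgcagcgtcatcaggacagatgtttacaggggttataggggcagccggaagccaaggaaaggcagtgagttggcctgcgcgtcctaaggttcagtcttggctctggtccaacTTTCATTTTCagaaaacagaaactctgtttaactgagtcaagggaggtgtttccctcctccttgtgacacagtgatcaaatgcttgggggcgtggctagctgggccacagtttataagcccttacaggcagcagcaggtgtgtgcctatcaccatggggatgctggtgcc
The Cxcl10 window holds 1 ISRE match from position -213 and 1 kB match from -159, counted from the transcript start, and no GAS match. The Gbp5 window holds 1 ISRE match, 2 GAS matches and 1 kB match. Isg15 holds 3 overlapping ISRE matches, from -78 to -57, printed as a single run of capitals, and Rsad2 holds 1. Over 27025 genes with a window, 3.99% held an ISRE match, 9.55% a GAS match and 1.63% a kB match. Of the type I interferon list used below, 37 genes had a window, of which 17 held an ISRE match and 7 a GAS match. Of the interferon gamma list, 22 had a window, of which 11 held an ISRE match and 11 a GAS match. A match is a run of letters and not a measured site.

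Cxcl10-high cells were a smaller share of the MC38 library's monocytes. They made up 7.13% (5.74 to 8.72) of the 1207 control cells of the monocyte gate and 2.16% (1.75 to 2.64) of the 4354 MC38 cells, a 3.30-fold difference (2.43 to 4.47). Of all quality-filtered barcodes they were 1.06% and 0.542%, a 1.96-fold difference (1.45 to 2.66), because the gate itself was 14.9% and 25.1% of those barcodes. Without a limit on mitochondrial UMIs the second pair was 0.622% and 0.486%, a log2 difference of 0.36 whose interval (-0.08 to 0.79) held no difference. With every cell thinned to 3000 UMIs and at least 2 Cxcl10 UMIs asked for, the shares of the gate were 7.25% (5.82 to 8.89) of 1159 and 2.04% (1.64 to 2.51) of 4260 cells, with 48 and 94 shallower cells left out. In B cells, which should lack Cxcl10, 0.731% of 821 control and 0.797% of 1631 MC38 cells had any Cxcl10 UMI and 0 had 5, which allows a share of up to 0.365% and 0.184% (3 counts of the total); median depths there were 3807 and 3088 UMIs.

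Most cells of the gate held no Cxcl10 and a few held much. Of the control gate 1042 cells had 0 UMIs, 79 had 1 to 4 and 86 had 5 or more, and of the MC38 gate 4160, 100 and 94. Just outside and just inside the threshold lay 15 cells with 4 UMIs and 8 with 5 in the control, and 3 and 6 in the MC38 library. Per Cxcl10-high cell the lowest, median and highest counts were 5, 26.5 and 259 UMIs (control) and 5, 18 and 160 UMIs (MC38). The ranges overlapped over most of their length. The rule chose on this count, so it is a description.

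These cells held most of the Cxcl10 message of their libraries: 54.1% of 7509 UMIs (control) and 76.4% of 3877 UMIs (MC38). Of 201 control and 130 MC38 barcodes with at least 5 Cxcl10 UMIs, the mitochondrial limit removed 26 and 3, Lyz2 47 and 11, Csf1r 3 and 1, the Kupffer cell genes 19 and 6, Cd3 19 and 10, and Fscn1 1 and 5. Control Cxcl10-high barcodes thus fell outside the rule more often, with 86 of 201 kept against 94 of 130.

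The mix of monocyte kinds differed between the libraries, in Cxcl10-high and Cxcl10-zero cells. Cells were called C1q (at least 5 UMIs of C1qa, C1qb and C1qc), else nonclassical (at least 2 of Treml4, Ace, Adgre4 and Eno3), else classical (at least 2 of Ly6c2 and 1 of Ccr2). In the control, 42 Cxcl10-high cells were classical (48.8%, 37.9 to 59.9), 36 nonclassical (41.9%, 31.3 to 53.0) and 2 C1q. In the MC38 library, 39 were classical (41.5%, 31.4 to 52.1), 12 nonclassical (12.8%, 6.77 to 21.2) and 35 C1q. Among Cxcl10-zero cells the nonclassical share was 43.3% and 8.44% and the C1q share 3.55% and 26.5%. With cells thinned to 3000 UMIs the nonclassical share of Cxcl10-high cells was 22.2% and 4.30%, and the C1q share 1.23% and 26.9%.

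The share that was Cxcl10-high is given for each kind of cell, and whether the libraries differ more in one kind than in another was not tested. It was 8.11% (5.91 to 10.8) of 518 control and 1.58% (1.13 to 2.15) of 2467 MC38 classical cells. In nonclassical cells it was 6.88% (4.87 to 9.40) of 523 and 3.22% (1.67 to 5.55) of 373, and in C1q cells 4.55% (0.555 to 15.5) of 44 and 2.98% (2.08 to 4.12) of 1175.

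**Figure D1:**
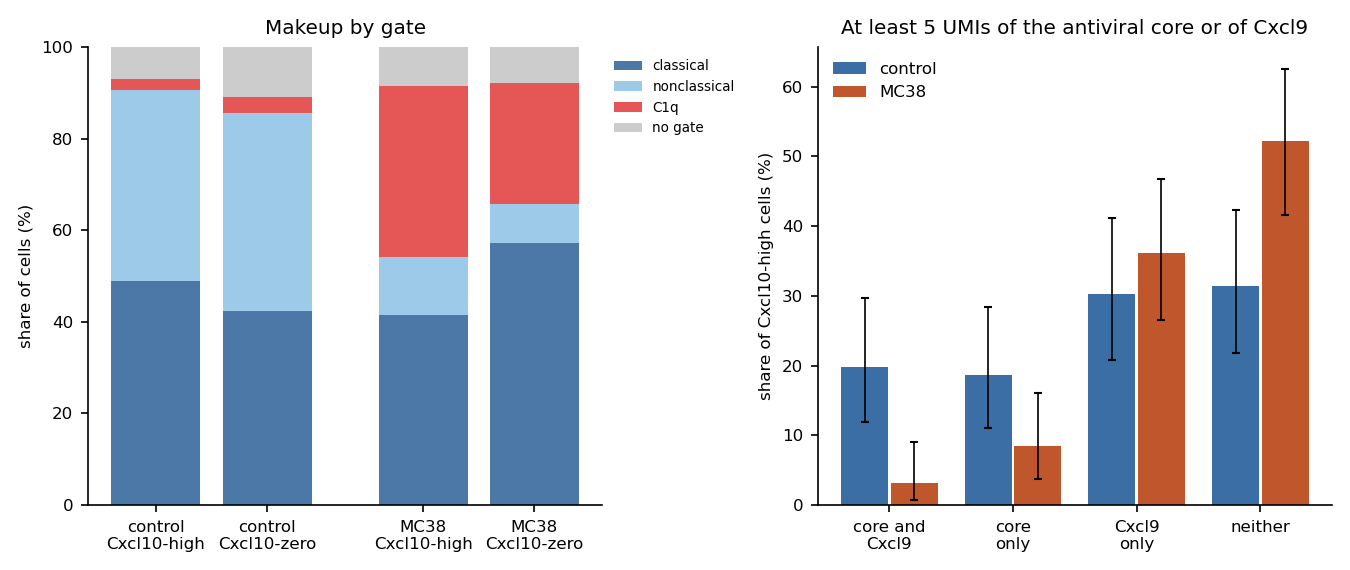
Left, share of cells (%) by gate in Cxcl10-high and Cxcl10-zero cells of each library. Right, share of Cxcl10-high cells (%) with at least 5 UMIs of the 6 antiviral core genes, of Cxcl9, of both or of neither, with exact 95% binomial intervals; the C1q share is 37.2% in MC38 Cxcl10-high cells and 2.33% in control ones, and cells with neither are 52.1% and 31.4%.

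Within each library, Cxcl10-high cells carried more message of interferon and NF-kB targets than Cxcl10-zero cells. A gene was called when at least 30 UMIs were counted in both groups of cells together, the levels differed at least 2-fold and the exact Poisson interval of their ratio left out no difference. Of 44 measured type I interferon genes, 36 were higher in control cells, 34 were higher in MC38 cells and 0 were lower, where 4.53% of all 9770 measured genes were called higher in control cells and 3.63% of 11858 in MC38 cells. The cells were chosen on Cxcl10, itself such a target, so these counts describe the choice and support nothing further. The list's median log2 difference was 1.69 and 1.78, beside -0.18 and -0.05 over all measured genes, and its summed level was 4664 CPM in Cxcl10-zero and 11552 CPM in Cxcl10-high control cells, against 1792 and 4738 CPM in the MC38 library.

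Of the interferon gamma list, 20 of 28 measured genes were higher (control) and 25 of 33 (MC38), with 0 lower (median log2 2.18 and 2.29). The steepest was Cxcl9, the chemokine that shares the receptor CXCR3 and lies beside Cxcl10 on chromosome 5 (92321347 to 92328079). It stood at 22.4 CPM in Cxcl10-zero and 2082 CPM in Cxcl10-high control cells (log2 6.54, 6.34 to 6.74), and at 52.5 and 1792 CPM in the MC38 library (5.09, 5.01 to 5.18). The control difference was thus the larger, from a lower level in Cxcl10-zero cells. Socs1, which curbs cytokine receptor signalling, stood at 10.5 and 251 CPM (control) and at 11.2 and 237 CPM (MC38). Gbp5, a guanylate-binding protein of inflammasome assembly, stood at 16.7 and 349 CPM and at 16.8 and 318 CPM.

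NF-kB targets were higher in 16 of 19 genes (control) and 17 of 20 (MC38), with 0 lower (median log2 2.17 and 1.89). Among single genes, on this list or not, Irg1 (also called Acod1) makes itaconate in activated macrophages. It was at 1.83 CPM in Cxcl10-zero and 236 CPM in Cxcl10-high control cells, and at 3.03 and 264 CPM in the MC38 library. Tnf stood at 6.47 and 89.9 CPM and at 3.79 and 44.7 CPM, and Il1b at 102 and 431 CPM and at 118 and 573 CPM. Cd274, the PD-L1 ligand gene, was at 10.9 and 108 CPM (control) and 10.5 and 84.3 CPM (MC38). Cd40, a receptor for T cell help, and Tnip3, an inhibitor of NF-kB, were among the 12 genes called most firmly in both libraries, as were Serpina3g, Serpina3f, Ifit1, Ifit2, Ralgds and Iigp1. Serpina3g and Serpina3f are close copies, so the split of their counts is uncertain.

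Most other groups differed less. MHC class I presentation genes were higher in 2 of 22 (control) and 5 of 22 (MC38), and of the MHC class II genes 0 of 12 were higher in either. Cell cycle genes were lower in 12 of 17 (control) and 7 of 17 (MC38), where 7.09% and 2.6% of all measured genes were called lower. Of the 10 interferon genes in the list, 9 were at 0 UMIs in the Cxcl10-high cells of each library, Ifnb1 among them. Ifng had 3 (control) and 7 (MC38) UMIs there, and 13 and 24 UMIs in Cxcl10-zero cells. In the MC38 library it was called higher, at 0.481 CPM in Cxcl10-zero and 5.90 CPM in Cxcl10-high cells (log2 3.62, 2.16 to 4.87). In the control it had under 30 UMIs and could not be called. The neutrophil granule genes Ngp and Camp were at 162 and 208 CPM in control Cxcl10-zero cells, but only 10 and 8 of the 1042 cells held them, and 41 and 26 of the 4160 MC38 ones. Cxcl10-high cells held 0 UMIs of Ngp in either library and 0 and 1 UMI of Camp, and a difference was not detectable in so few cells. In both libraries 238 genes were called higher, 53.7% of the control's 443 and 55.2% of the MC38 library's 431. Of the 693 and 308 called lower, 87 were shared (12.6% and 28.2%), and 13 genes were called in opposite directions.

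**Figure D2:**
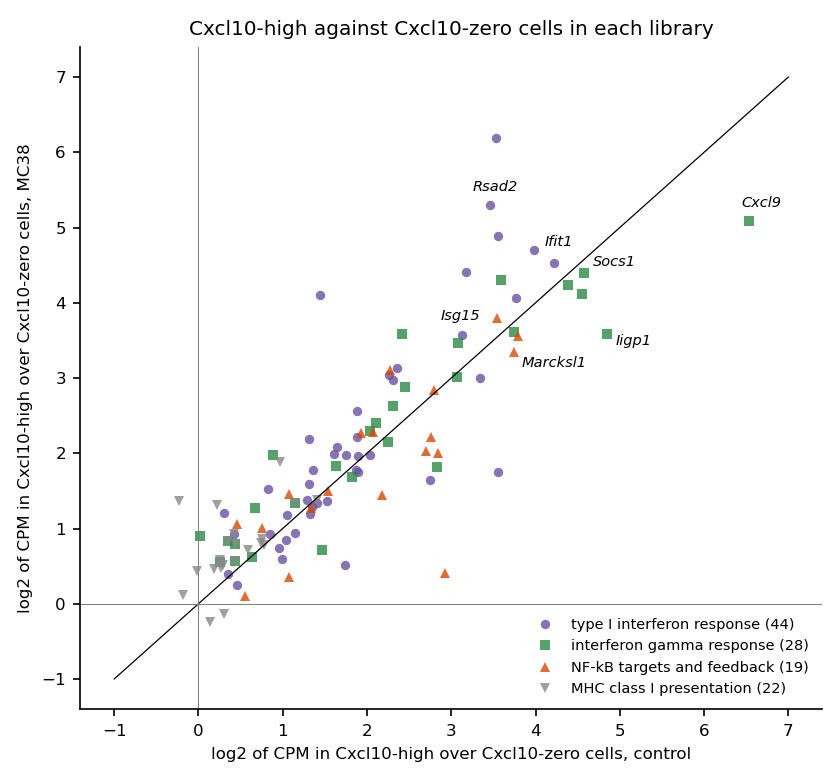
Each point is a measured gene of 1 of 4 lists; the axes give the log2 of its CPM in Cxcl10-high over that in Cxcl10-zero cells, control across and MC38 up, with the line of equal values. Of the genes named in the plot Cxcl9 lies farthest right, at 6.54 and 5.09, and the MHC class I genes lie lower left, with medians of 0.32 and 0.75.

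By the amount of Cxcl10, the genes followed different courses. Gbp5 went with Cxcl10 alike in both libraries: 16.7, 81.1, 158, 221 and 473 CPM in control cells with 0, 1 to 4, 5 to 9, 10 to 19 and 20 or more Cxcl10 UMIs, and 16.8, 59.9, 159, 232 and 471 CPM in MC38 cells. Isg15, a ubiquitin-like antiviral protein gene, was at 82.7, 628, 575, 746 and 781 CPM in the control, already high at 1 to 4 UMIs. In the MC38 library it was at 26.1, 123, 191, 206 and 447 CPM, the last 307 CPM without 1 cell that held 79 of the 239 UMIs. The control level was thus above the MC38 level in every class of Cxcl10 count. Irf7, the factor that amplifies type I interferon, stayed between 36.4 and 90.3 CPM in MC38 cells up to 19 UMIs and was at 239 CPM above (117 CPM without 1 cell that held 67 of the 128 UMIs), while in the control it was at 123 CPM with no Cxcl10 and between 319 and 425 CPM in the other classes. Ly6c2 showed no such course, at 881 to 1946 CPM over the control classes and 735 to 1182 CPM over the MC38 ones.

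**Figure D3:**
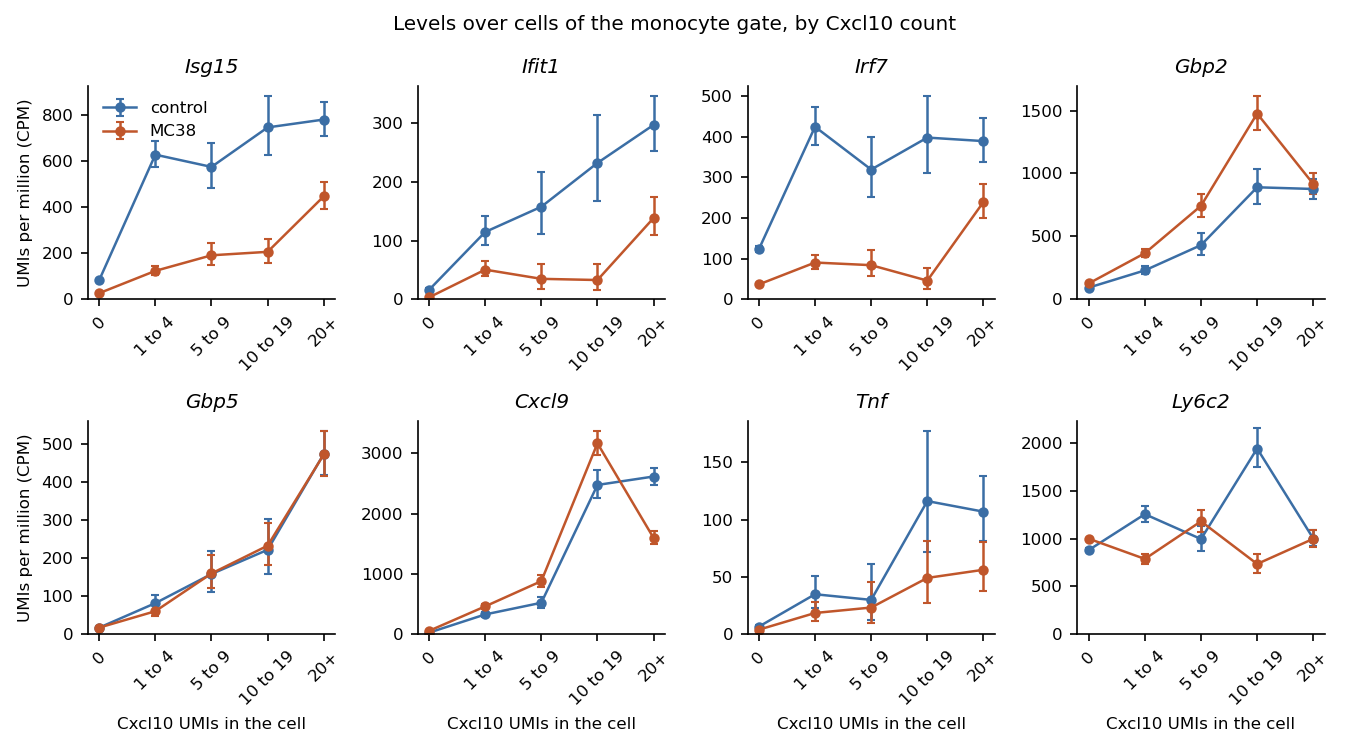
Level (CPM, summed over cells, exact 95% Poisson intervals) of 8 genes in cells of the monocyte gate by Cxcl10 UMIs in the cell. The control curves of Isg15, Ifit1 and Irf7 lie above those of MC38, the Gbp5 curves lie on each other, and Gbp2 is higher in MC38 up to 19 UMIs.

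Across single cells of the gate, 8 of the first 10 genes by likeness to Cxcl10 were on the type I interferon, interferon gamma or NF-kB list. Those lists had 45, 35 and 20 genes in the data, and their share of all ranked genes was not counted. Of 6777 genes detected in at least 10% of cells in each library, ranked by the lower of the 2 Spearman coefficients of UMIs per 10000, Gbp5 was first (0.44 over 1207 control and 0.28 over 4354 MC38 cells). Socs1 (0.40 and 0.24), Igtp (0.30 and 0.22), Cd274 (0.34 and 0.20), Icam1 (0.40 and 0.20), Marcksl1, Cd40, Ifi47 and Isg15 (0.38 and 0.19) were also near the top. The cells of a library share its depth and free RNA, most hold no Cxcl10, and the coefficients are weak, so they only order the genes.

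Between the libraries, type I interferon genes were lower in MC38 Cxcl10-high cells. Of 42 measured type I interferon genes 34 were lower in the MC38 library and 0 higher, where 5.17% of 6324 measured genes were called lower and 6.74% higher. Their median log2 difference was -1.27, beside 0.03 over all genes, and the list summed to 11552 CPM (control) and 4738 CPM (MC38). Of the list's 48 symbols 3 were not analysed here and 3 more had under 30 UMIs. Oas2, an RNA-sensing synthetase, was at 67.2 and 10.1 CPM (log2 -2.73, -3.76 to -1.83). Cmpk2, a nucleotide kinase of the antiviral core, was at 64.1 and 11.8 CPM, and Ifi27l2a at 1671 and 343 CPM (-2.28, -2.44 to -2.13). At the other end Ifi35 was at 135 and 119 CPM and Zbp1, a sensor of Z-form nucleic acid, at 357 and 254 CPM, and neither was called.

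The antiviral core was spread over fewer MC38 cells. Isg15 was detected in 81.4% of control and 67.0% of MC38 Cxcl10-high cells and was at 724 and 310 CPM (-1.22, -1.41 to -1.04). Irf7 was detected in 81.4% and 40.4%, at 374 and 144 CPM. Ifit1, which binds viral RNA, was detected in 40.7% and 23.4%, at 251 and 80.9 CPM. Ifit3 was detected in 36.0% and 11.7%, at 210 and 49.7 CPM, and Rsad2, the antiviral enzyme viperin, in 33.7% and 8.51%, at 200 and 77.5 CPM. A single MC38 cell held 65.2% of the 92 Rsad2 UMIs of that library, 45.8% of Ifit3, 40.6% of Ifit1 and 39.2% of Irf7, so that the MC38 levels of these genes rest largely on it. Without that cell, left out after the data had been seen, Rsad2 was at 27.3 CPM, Ifit3 at 27.3 CPM, Ifit1 at 48.5 CPM and Irf7 at 88.6 CPM, and 37 of 42 genes of the list were lower. Ifit3 and Ifit3b are close copies, so the split of their counts is uncertain.

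Type I interferon genes were also lower in MC38 cells without Cxcl10. Of 44 measured type I interferon genes in Cxcl10-zero cells, 33 were lower in the MC38 library and 0 higher (median log2 -1.50), where 7.15% of 12111 genes were called lower and 8.6% higher. Of the 42 genes measured in both kinds of cell, 28 were lower in both. Cxcl10-zero cells had Isg15 at 82.7 and 26.1 CPM and Ifit3 at 23.2 and 2.35 CPM. The difference was also present where both libraries had enough cells of 1 kind to compare: in classical Cxcl10-high cells, 42 control and 39 MC38, 34 of 40 measured genes were lower and 0 higher (median -1.70, beside 0.06 over 3979 genes, of which 6.33% were called lower and 6.89% higher). Outside the C1q gate 24 of 42 were lower, with a median of -1.04, where 5.18% of 5656 genes were called lower.

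Interferon gamma targets did not share this difference. Of 28 measured genes 5 were higher in the MC38 library and 0 lower, a median log2 of 0.07, and the list summed to 9173 CPM (control) and 9344 CPM (MC38) (log2 0.03, -0.01 to 0.07). Cxcl9 was detected in 58.1% and 52.1% of cells. Gbp2 was at 771 and 1010 CPM (0.39, 0.26 to 0.52), and Irf1, a transcription factor that interferon gamma induces, at 598 and 449 CPM. The genes called higher were Gm4951, Gbp8, Upp1, Gbp4 and Iigp1, the last an immunity-related GTPase at 83.7 and 183 CPM (1.13, 0.75 to 1.51). Gbp4 and Gbp8 belong to a family of close copies. With 1 library each, the difference between the 2 lists was not tested.

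**Figure D4:**
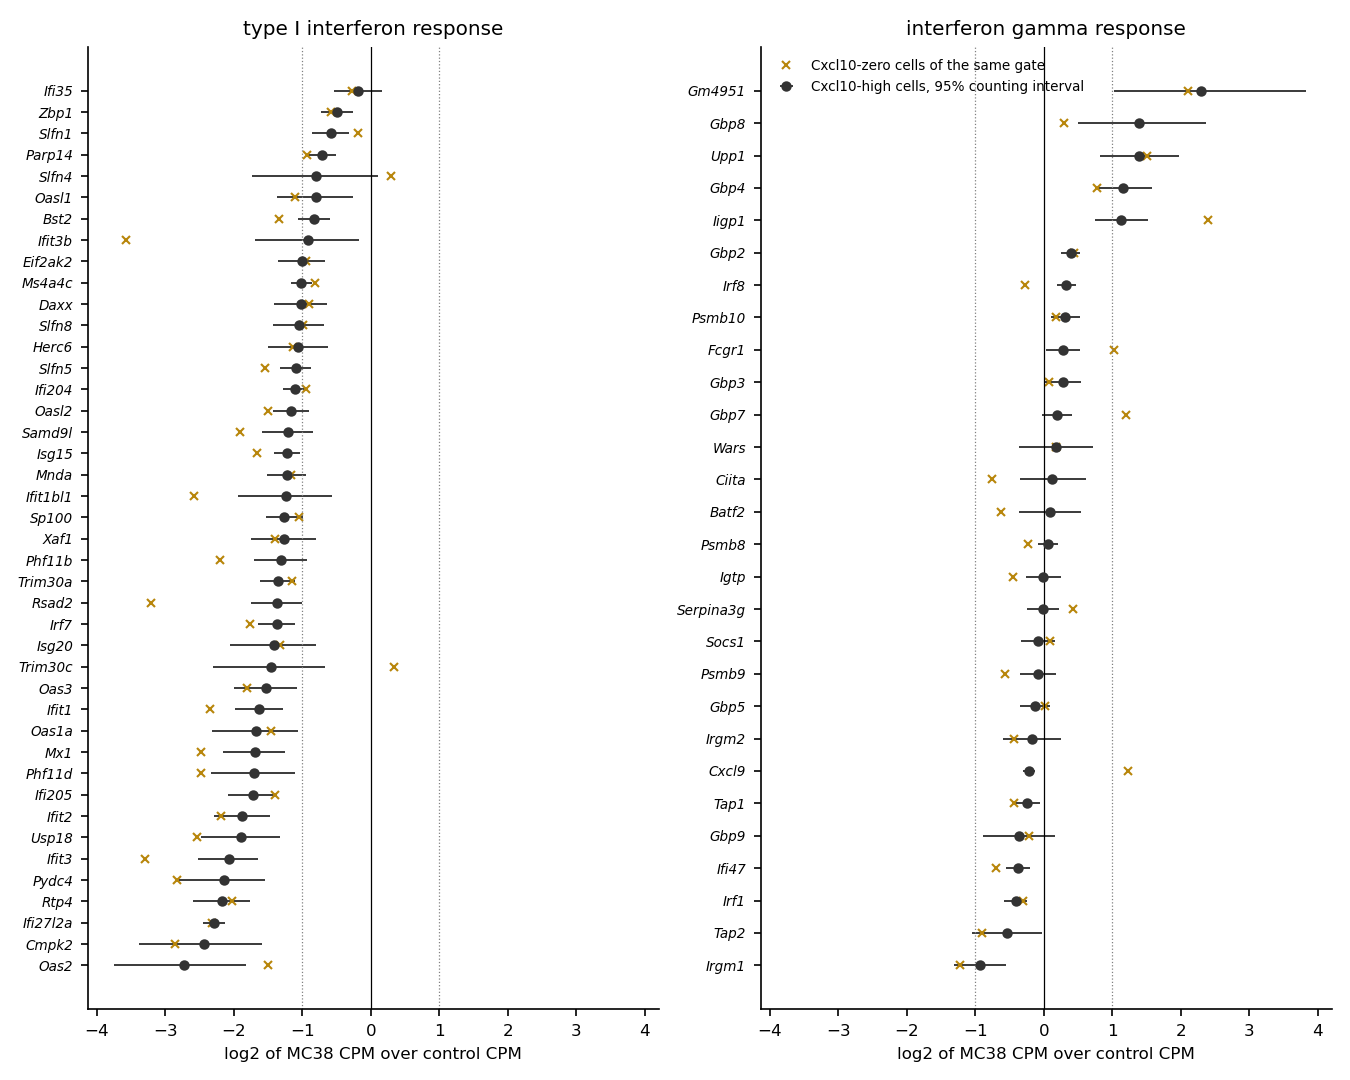
Log2 of MC38 over control CPM for the measured genes of the type I interferon list (left) and the interferon gamma list (right); black points are Cxcl10-high cells with 95% counting intervals, crosses are Cxcl10-zero cells, dotted lines mark a 2-fold difference. All type I genes lie left of 0 in Cxcl10-high cells, with a median of -1.27, and the interferon gamma genes lie around 0, with a median of 0.07.

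NF-kB targets leaned lower in MC38 cells, while inflammatory cytokines differed in single genes but not in their sum. Of 19 measured NF-kB genes 6 were lower and 1 higher (median log2 -0.74). For this and the other lists compared between libraries, 5.17% of 6324 measured genes were called lower and 6.74% higher. Marcksl1, an actin regulator, was at 730 and 142 CPM (-2.36, -2.61 to -2.11), Tnfaip3, the NF-kB inhibitor A20, at 124 and 28.6 CPM, and Tnf at 89.9 and 44.7 CPM (-1.01, -1.53 to -0.50), while Ier3, an early response gene, was the one higher, at 118 and 254 CPM. Of 9 inflammatory cytokine genes 5 were lower: Tnf, Il1rn, Il15, Il27 and Ebi3, the last 2 encoding the chains of the cytokine IL-27. The cytokine list had a median log2 of -1.01, but it summed to 1427 CPM (control) and 1386 CPM (MC38) (log2 -0.04, -0.15 to 0.06). Il1b was not called, at 431 and 573 CPM, with 26.9% of its control UMIs in 1 cell.

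Among chemokines, 3 of 8 measured CC genes were lower and 0 higher. Ccl4, a chemokine for T cells and monocytes, was at 127 and 16.0 CPM (-2.99, -3.77 to -2.28), with 35.0% of the control UMIs in 1 cell, and Ccl2, which recruits monocytes, at 79.5 and 45.5 CPM without a call. Ccl5 was at 316 and 294 CPM, and 37.2% and 24.5% of cells held it. Heat shock genes were lower in 4 of 12, with Hspa1b at 125 and 17.7 CPM and its near-identical neighbour Hspa1a at 114 and 16.9 CPM; the libraries also differed in mitochondrial share, as given above, and its part was not tested. Nr4a1, the factor that nonclassical monocytes need, was at 125 and 12.6 CPM.

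Among the genes higher in MC38 Cxcl10-high cells were some of macrophages and of arginine metabolism. Of 12 measured arginine and immunoregulatory genes 8 were higher and 1 lower (median log2 1.89). Arg1, the arginine-degrading enzyme, was at 5.17 and 262 CPM, and at 2.46 and 202 CPM in B cells of the same libraries. MC38 B cells were shallower, with a median of 3088 UMIs beside 12147 in MC38 Cxcl10-high cells, so equal CPM is not equal UMIs a cell. A single MC38 Cxcl10-high cell held 23.5% of the 311 Arg1 UMIs, and how much of the level was free RNA was not tested. Chil3, a chitinase-like protein of myeloid cells, was at 1171 and 6102 CPM and Trem2, a lipid receptor of macrophages, at 45.5 and 226 CPM. Lpl, lipoprotein lipase, was the one lower, at 358 and 72.5 CPM. C1qa was at 1.03 and 497 CPM, beside 9.37 and 26.2 CPM in B cells, and C3ar1, the receptor for complement fragment C3a, at 4.13 and 114 CPM.

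S100a8, a calcium-binding protein of neutrophils and young monocytes, was at 5.17 and 1592 CPM, detected in 5.81% and 57.4% of cells, and at 2.96 and 61.2 CPM in B cells. Spint1, a protease inhibitor, was at 5.17 and 305 CPM, in 3.49% and 83.0% of cells, beside 0.739 and 3.27 CPM in B cells. Most of these genes were also higher in MC38 Cxcl10-zero cells. There S100a8 was at 682 and 2995 CPM, detected in 6.05% and 70.0% of cells, so that its control level rests on few cells. Spint1 was at 4.54 and 242 CPM and C1qa at 51.5 and 296 CPM. Neutrophil markers summed to 192 and 2186 CPM and hepatocyte markers to 218 and 869 CPM in Cxcl10-high cells, and Mat1a, a liver enzyme gene, was at 3.10 and 163 CPM beside 7.15 and 314 CPM in B cells; their part in the results was not tested. Of 18 measured glycolysis and hypoxia genes 5 were higher and 0 lower, Gapdh among them at 913 and 2098 CPM.

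The Cxcl10-high cells were not of 1 kind within a library. The antiviral core was taken as Ifit1, Ifit2, Ifit3, Rsad2, Cmpk2 and Mx1, and each cell was asked for at least 5 UMIs of the core and at least 5 of Cxcl9, a split made after the values had been seen. In the control 33 of 86 cells (38.4%, 28.1 to 49.5) had the core and 43 (50.0%, 39.0 to 61.0) had Cxcl9. In the MC38 library 11 of 94 (11.7%, 5.99 to 20.0) had the core and 37 (39.4%, 29.4 to 50.0) had Cxcl9. Both were present in 17 control and 3 MC38 cells, the core without Cxcl9 in 16 and 8, Cxcl9 without the core in 26 and 34, and neither in 27 and 49. With a threshold of 1 UMI the core was in 70.9% and 31.9% of cells and with 10 UMIs in 31.4% and 9.57%. At 1 UMI both were present in 44.2% and 21.3% of cells and neither in 15.1% and 37.2%. At 10 UMIs both were present in 11.6% and 2.13% and neither in 37.2% and 57.4%, so the size of each kind depends on the threshold. In Cxcl10-zero cells 6.91% and 0.481% had the core and 1.06% and 1.80% had Cxcl9.

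Core and Cxcl9 were only weakly related over the Cxcl10-high cells. Their Spearman coefficient was 0.13 in 86 control and 0.09 in 94 MC38 cells, while Cxcl9 went with Gbp2 (0.67 and 0.65) and the core with Isg15 (0.69 and 0.54). These cells were chosen on Cxcl10, which both kinds of interferon switch on. Such a choice can by itself lower a coefficient between their targets, so the values describe the chosen cells only. Control cells with the core but not Cxcl9 stood at 1670 CPM of Isg15, 999 CPM of Irf7 and 2750 CPM of Ly6c2, and those with Cxcl9 but not the core at 455, 218 and 634 CPM. Gbp2 ran the other way, at 525 and 1128 CPM. In the MC38 library the same 2 kinds stood at 2311 and 202 CPM of Isg15, 1185 and 55.0 CPM of Irf7, and 640 and 1687 CPM of Gbp2, the first kind over 8 cells. Of those 8, a single cell held 67 of the 100 Irf7 and 79 of the 195 Isg15 UMIs, and without it the first kind stood at 1622 CPM of Isg15, 461 CPM of Irf7 and 391 CPM of Gbp2. Tnfsf10, the death ligand TRAIL, was at 102 and 59.3 CPM in cells with the core alone (14 and 5 UMIs). It was at 2 and 1 UMIs in cells with both. In both libraries it was at 0 UMIs in cells with Cxcl9 alone and also in cells with neither.

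In cells with neither, Isg15 was at 162 and 92.0 CPM, and Il1b at 787 and 659 CPM. A single control cell held 112 of the 262 control Il1b UMIs of this kind. Il1b was at 307 and 468 CPM in cells with Cxcl9 alone and at 243 and 40.1 CPM in cells with both. In cells with the core alone it was at 117 and 842 CPM, and 1 MC38 cell held 52 of the 71 MC38 UMIs there. Nfkbia, the inhibitor that NF-kB induces on itself, was at 1085 and 691 CPM in cells with neither, beside 1185 and 581 CPM in cells with both. It was at 1247 and 633 CPM in cells with Cxcl9 alone and at 708 and 640 CPM in cells with the core alone.

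**Figure D5:**
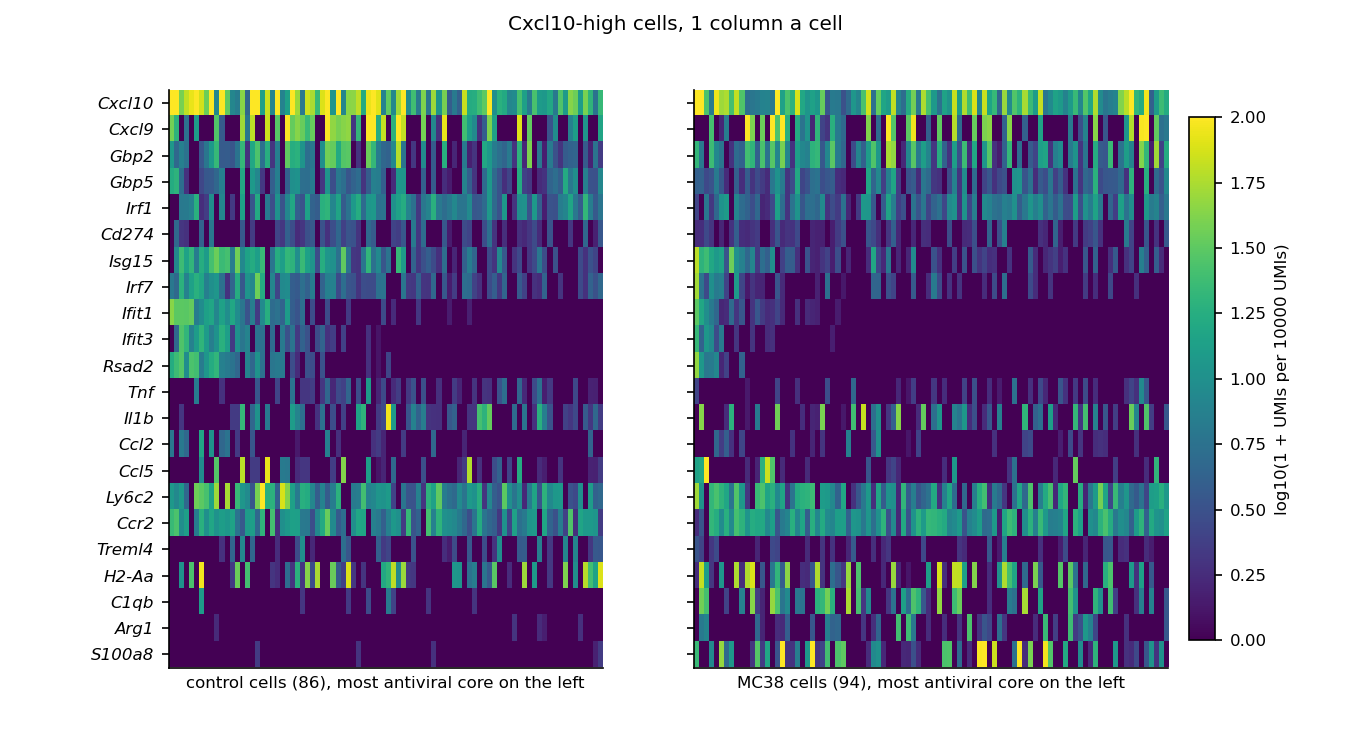
Each column is a Cxcl10-high cell, 86 control on the left and 94 MC38 on the right, ordered by its share of antiviral core UMIs; rows are genes and colour is log10(1 + UMIs per 10000 UMIs), capped at 2. Ifit1, Ifit3 and Rsad2 fill the left of the control block and a narrow edge of the MC38 block, Cxcl9 and Gbp2 are scattered over both, and C1qb and S100a8 appear mainly in MC38 cells.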

How the data were processed

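Single-cell RNA was counted in 2 libraries, each pooling 3 mice. Raw UMI counts per gene and barcode were deposited, per the file headers written by 10x software 3.0.2. Seurat 2.3.4, R 3.6.0, STAR, Cell Ranger 2.2, bcl2fastq and the build GRCm38.p6 are listed, per the submitters' processing notes, without a role for each or the filter that chose the barcodes. The 28692 genes were summed over cells and scaled to counts per 1000000 UMIs (CPM). No cells were clustered.

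Ratios of summed counts have exact conditional Poisson intervals and shares have Clopper-Pearson intervals, both at 95% and for counting error only. A gene at 0 was given a floor of 3 counts. Doublets were scored with Scrublet in scanpy 1.11.5 and kept, and numpy 2.4.6, scipy 1.17.1 and pandas 2.3.3 did the rest. The calling step was run on simulated Poisson counts, the model that its intervals assume. That run cannot show how the calls fare where a few cells hold most UMIs of a gene. Thinning drew 3000 UMIs a cell without replacement and left out shallower cells. B cells, used as a background for free RNA, had at least 3 Cd79a UMIs and at most 2 Lyz2 UMIs, among other criteria.

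The members, the 24 gene lists and the 19 marker lists were chosen with earlier results of these data known. Named genes were the 12 in each direction called most firmly between libraries, at 50 CPM or more and in 10% of cells or more, the 12 higher and 8 lower than Cxcl10-zero cells in both libraries, the ends of each list, and a short set of chemokine, antiviral and monocyte genes. Other genes were named after their values had been seen. Some genes that meet the rule are not reported here. Alternatives changed the mitochondrial, gene, Cxcl10 and UMI limits, doublets, scaling, depth and the C1q cells.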

Additional observations from a re-analysis of the deposited data

Results flagged for a closer look

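For a pair of genes, Cxcl10-high cells stood above Cxcl10-zero cells in the control and below them in the MC38 library. Pf4, a platelet and macrophage chemokine, differed by a log2 of 1.67 in the control (25.8 CPM in Cxcl10-high and 8.11 CPM in Cxcl10-zero cells) and of -1.55 in the MC38 library (21.1 and 61.8 CPM). Spp1, which encodes osteopontin, differed by 3.25 (48.6 and 5.12 CPM) and by -1.23 (66.6 and 156 CPM). A single control cell held all 25 Pf4 UMIs of the control Cxcl10-high cells, and 1 cell held 37 of their 47 Spp1 UMIs. The platelet markers, Pf4 among them, summed to 47.5 CPM in control Cxcl10-high and 13.1 CPM in control Cxcl10-zero cells and to 26.1 and 72.2 CPM in the MC38 library, none at 0 in the control and 1 of 6 at 0 in MC38 Cxcl10-high cells, and 1 control cell held all 10 Ppbp UMIs; their part was not tested. The difference between the libraries was not tested.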

How the results depend on the processing

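No paired analysis was possible because each group is 1 library. Asking for 3 Cxcl10 UMIs gave 9.20% of the control gate and 1.37% of filtered control barcodes. Asking for 10 gave 5.47% and 1.52% of the control and MC38 gates and 0.816% and 0.381% of filtered barcodes. A 10% mitochondrial limit gave 1.80% and 0.684% of filtered barcodes, and no limit gave 0.622% in the control and a log2 of 0.36 for control over MC38 (-0.08 to 0.79), so that no difference was no longer left out. Between libraries, a minimum of 100 UMIs left 140 genes higher and 156 lower in MC38, a minimum of 1 UMI gave 677 higher, and thinning to 3000 UMIs gave 151 higher and 166 lower; fewer or more genes could be called by construction. Thinning moved the nonclassical share to 22.2% and 4.30% and the MC38 C1q share to 26.9%. Against Cxcl10-zero cells of the control, Retnlg turned to a log2 of 2.61 (-0.97 to 5.73) with zero cells at the depth of the Cxcl10-high cells. Outside the C1q gate C1qc turned to 0.38 (-1.14 to 1.60). Both intervals held no difference, and the cause was not tested. The other 85 values of main results moved by less than their error or 1.5 times, as did 1135 of single genes, while 131 moved more without turning. Type I interferon genes were lower in MC38 in 24 to 37 of the 35 to 44 measured, and 0 were higher, over the alternatives in this comparison. With 1 library a group, no difference has a replicate check, and removing cells with UMIs of other lineages and removing the MC38 cell with most core UMIs were alternatives added after seeing the data.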
